A study of Mus musculus with 10 samples.

Results

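The genes described here are the FGF receptor genes Fgfr1, Fgfr2, Fgfr3 and Fgfr4, the FGF carrier gene Fgfbp1, and 5 further receptor kinase genes of carcinoma cells, Met, Igf1r, Axl, Epha2 and Mst1r. They were chosen by gene symbol, and 9 of the 10 had a row among the 23086 genes of the deposited table. Fgfr4 was not analysed here. The libraries came from bladder (urothelial) tumours carried by mice and grown from BBN963, a cell line from a mouse bladder cancer induced by the carcinogen BBN. There were 5 tumours of the genotype ATM-WT and 5 of the genotype ATM-KO, in which the gene of the DNA damage kinase ATM was knocked out. Tumours of both genotypes were collected at 500 mm3, a frozen piece of each gave the RNA, and no treatment is named. The labels state neither the host strain, sex and age nor the number of knockout clones, and do not say that each tumour came from a separate mouse. The p-values below therefore measure only the spread between these samples.

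Receptor tyrosine kinases are membrane proteins that dimerize when a ligand binds, phosphorylate one another and pass the signal through adaptors to RAS and ERK, PI3K and phospholipase C gamma. FGF receptors bind their ligands together with heparan sulfate chains, and epithelial and mesenchymal cells make different receptors, so that mesenchymal FGFs reach epithelial receptors and the reverse. FGFR3 is the FGF receptor best known in bladder cancer, where activating mutations and fusions are frequent in papillary tumours. AXL is commonly made by mesenchymal-like carcinoma cells. RON, the product of Mst1r, is an epithelial relative of MET.

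The start regions of the genes with the largest falls, Fgfr2 and Fgfbp1, and of a pair that rose, Axl and Met, are given because the results on receptor makeup and on rises turn on these genes. The windows run from 250 bases before to 50 after the RefSeq start site in GRCm38.p6, 5′ to 3′ on the gene's strand, and capitals mark motif matches. They lie at chr7:130266759-130267058, minus strand (Fgfr2), chr5:43981750-43982049, minus strand (Fgfbp1), chr7:25788684-25788983, minus strand (Axl), and chr6:17463707-17464006, plus strand (Met).
Fgfr2: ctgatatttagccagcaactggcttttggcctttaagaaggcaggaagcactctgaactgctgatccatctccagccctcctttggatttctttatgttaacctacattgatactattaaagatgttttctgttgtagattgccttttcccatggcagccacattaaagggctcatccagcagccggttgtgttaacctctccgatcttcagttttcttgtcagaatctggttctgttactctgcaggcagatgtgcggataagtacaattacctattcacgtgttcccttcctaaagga
Fgfbp1: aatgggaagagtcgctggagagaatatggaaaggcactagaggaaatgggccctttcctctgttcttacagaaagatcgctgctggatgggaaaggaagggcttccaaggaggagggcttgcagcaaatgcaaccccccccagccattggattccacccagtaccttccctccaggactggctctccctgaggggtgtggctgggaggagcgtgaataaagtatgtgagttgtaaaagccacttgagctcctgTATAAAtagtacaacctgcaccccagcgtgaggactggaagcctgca
Axl: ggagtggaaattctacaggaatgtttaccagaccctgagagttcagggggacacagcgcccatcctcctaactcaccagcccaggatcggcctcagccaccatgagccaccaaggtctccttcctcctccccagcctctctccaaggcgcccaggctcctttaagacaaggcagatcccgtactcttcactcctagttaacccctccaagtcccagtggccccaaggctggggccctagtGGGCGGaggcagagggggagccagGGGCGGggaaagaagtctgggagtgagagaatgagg
Met: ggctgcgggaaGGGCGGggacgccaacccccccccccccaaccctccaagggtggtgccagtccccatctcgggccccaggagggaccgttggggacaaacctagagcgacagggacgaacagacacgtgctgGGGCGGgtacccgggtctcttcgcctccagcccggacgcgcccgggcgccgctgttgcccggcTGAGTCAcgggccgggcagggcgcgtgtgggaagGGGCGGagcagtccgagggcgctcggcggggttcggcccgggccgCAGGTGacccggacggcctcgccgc
The 4 motifs searched on both strands were TGANTCA (AP-1, the site of FOS and JUN factors), GGGCGG (the GC box of SP factors), CACCTG (the E2-box of ZEB and SNAI repressors) and TATAAA (the TATA box). They occurred in 7.81%, 35.7%, 20.2% and 13.6% of 32851 mouse windows of the same length, in that order. The Fgfr2 window had none of them and a GC content of 43.7%, below the median of 52.7% over all windows. In Fgfbp1 (GC 53.3%) the match was 1 TATA box, which began 3 bases after the annotated start. Axl (GC 60.3%) had 2 GC boxes, and Met (GC 75.7%) had 3 GC boxes, 1 AP-1 match and 1 E2-box, with no overlap between matches. GC content did not follow the direction of change: the 2 Fgfr3 windows, of a gene that fell, had 69.7% and 73.0%, and that of Epha2, which rose, had 54.7%. A match describes the letters of the window and does not show binding. RefSeq windows were at hand for 9 of the 10 genes, the exception being Fgfr1.

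Values are the authors' normalized counts, given as mean ± SD over 5 libraries per genotype unless listed by library. Log2 fold changes compare ATM-KO with ATM-WT, positive where ATM-KO is higher. They were computed after adding 1 to each value, so they understate the change of low genes, and they carry ± SE. Tests are limma's with Benjamini-Hochberg adjustment over all 16517 genes tested, and a gene is called when its adjusted p is below 0.05. The libraries summed to 20.2 to 22.3 M (mega) normalized counts. Spacing of the low values gave a rough depth of 20.6 to 28.3 M reads for 9 libraries and 8.82 M for ATM-WT library A2. Genes at 0 were most numerous in ATM-WT libraries A2 (4824) and A4 (4266), against 2225 to 3602 in the others. The depth estimate of A4, 25.4 M, is therefore uncertain. Epithelial marker genes, the defining markers of a urothelial tumour, were present in ATM-WT but very low in ATM-KO. Their 13 genes summed to between 89782 and 247307 normalized counts in ATM-WT and between 2408 and 4163 in ATM-KO, where 2 of them were at 0 in some libraries and none in all. The 12 fibroblast markers summed to 189435 to 646729 in ATM-WT and 47706 to 131278 in ATM-KO. Macrophage markers (10 genes, 22962 to 68763 and 41991 to 62486) and endothelial markers (10 genes, 3099 to 5386 and 2957 to 5462) overlapped between genotypes. Of these lists limma called 13 epithelial, 10 fibroblast and 1 endothelial marker lower and 1 macrophage marker higher. In these bulk tumours fewer cells of a type and less RNA per cell cannot be told apart, and the part of the marker differences in the results below was not tested.

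Of the 9 genes, Fgfr2, Fgfr3, Fgfbp1 and Mst1r were lower in ATM-KO tumours, Axl, Epha2 and Met were higher, and Fgfr1 and Igf1r were not called. Over all genes tested, 24.3% were called lower and 22.1% higher, so that 46.4% were called in either direction. The 4 of 9 called lower (44.4%) and 3 of 9 called higher (33.3%) stand on that high background. Fgfbp1, with an ATM-KO mean of 0.519, passed the filter on low values (a mean of at least 10) only through its ATM-WT values. It is among the 4 called lower and, below, the 4 lower genes without overlap. Across all genes tested the median log2 fold change was 0.0047. Quantile normalization of the log2 values moved this median to 0.15 and the counts of all genes from 3649 higher and 4017 lower to 4514 higher and 3319 lower. Under that scaling Met lost its call, while the other 6 called genes kept theirs and their direction. The values of the genotypes did not overlap for 4 genes in the lower and 2 in the higher direction, Axl and Epha2. Over all genes this held for 18.2% in the lower and 17.0% in the higher direction, 35.2% in all.

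**Figure D1:**
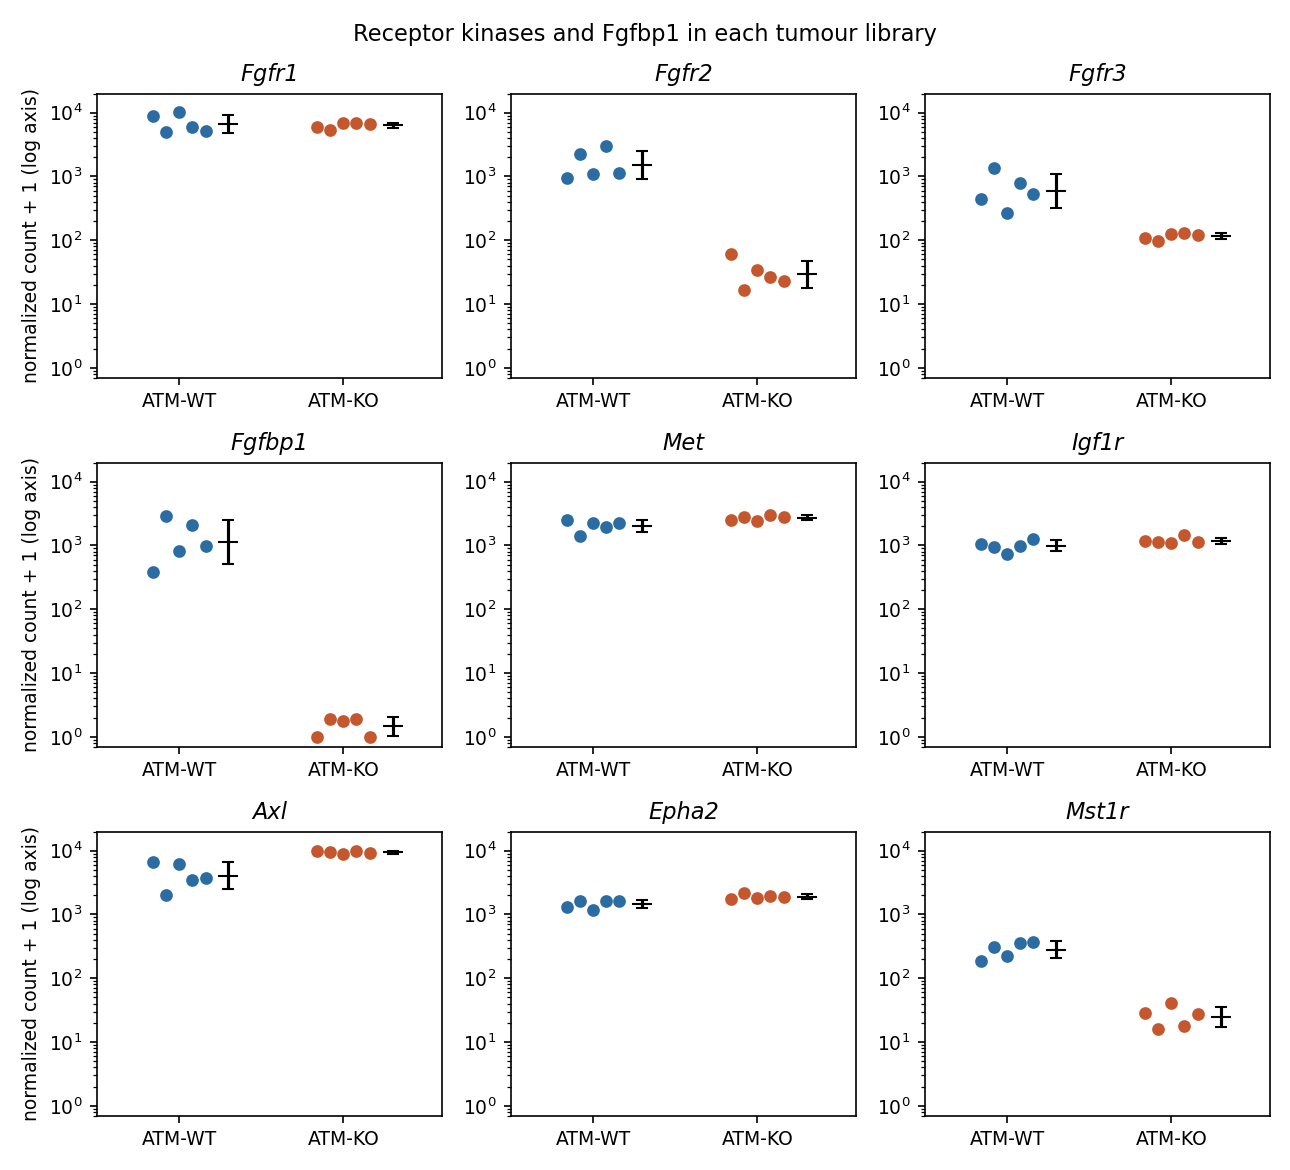
Normalized count + 1 on a log axis for each of the 9 genes in the 5 ATM-WT libraries (blue, A1 to A5 from left to right) and the 5 ATM-KO libraries (orange, A11 to A15). Bars give the mean ± SD of the log values. Fgfr2, Fgfr3, Fgfbp1 and Mst1r lie lower in every ATM-KO library, Axl and Epha2 lie higher, and Fgfr1, Igf1r and Met overlap.

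Fgfr2 encodes the receptor whose epithelial form binds FGF7 and FGF10. In ATM-WT libraries A1 to A5 it had 939, 2231, 1083, 2968 and 1113 normalized counts, and in ATM-KO libraries A11 to A15 it had 59.7, 15.7, 33.7, 25.8 and 21.8. The lowest ATM-WT library thus lay far above the highest ATM-KO library, and within ATM-WT the libraries A2 and A4 were the highest. The mean fell from 1667 ± 893 to 31.4 ± 17.2, a log2 fold change of -5.68 ± 0.39 (limma adjusted p = 4.87e-07). An exact two-sided permutation test over all 252 splits of 5 against 5 gave p = 0.0079, the smallest it can give, for Fgfr2 and for each of the other 5 genes without overlap.

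Fgfr3 encodes the FGF receptor that is often mutated in bladder cancer. ATM-WT libraries A1 to A5 had 439.6, 1373, 269, 784 and 524 normalized counts of Fgfr3, and ATM-KO libraries A11 to A15 had 109, 97.9, 125, 127 and 119. The ATM-KO values were close together, whereas those of ATM-WT spread widely with A2 highest and A3 lowest. The mean Fgfr3 value fell from 678 ± 431 to 115 ± 12.1 (-2.33 ± 0.35, limma adjusted p = 1.44e-04). Reads of Fgfr3 may be shared with the pseudogene Fgfr3-ps, which averaged 25.9 ± 16.6 among ATM-WT libraries and 35.4 ± 10.6 among ATM-KO libraries (0.67 ± 0.53, limma adjusted p = 0.33).

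Fgfr1, the main FGF receptor of mesenchymal cells, was not called. Its ATM-WT libraries A1 to A5 had 8847, 4941, 10109, 5989 and 5132 normalized counts, and its ATM-KO libraries A11 to A15 had 6037, 5413, 6793, 6948 and 6566. All ATM-KO values of Fgfr1 lay inside the ATM-WT range. The means were 7003 ± 2336 and 6352 ± 628, and the log2 fold change of -0.08 ± 0.19 had a 95% interval from -0.50 to 0.33 (limma adjusted p = 0.74), so changes of the size seen for Fgfr2 or Fgfr3 lie outside it.

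The makeup of FGF receptor RNA therefore differed between the genotypes. After division by the length of the annotated exons, Fgfr1 made up 72.8 ± 14.4% of the summed Fgfr1, Fgfr2 and Fgfr3 level in ATM-WT (55.9% to 87.7%) and 97.4 ± 0.267% in ATM-KO (97.0% to 97.6%). Fgfr2 contributed 18.3 ± 9.53% in ATM-WT against 0.492 ± 0.282% in ATM-KO. For Fgfr3 the shares were 8.92 ± 5.98% and 2.10 ± 0.0202%. The summed level of the 3 receptors was 1823 ± 336 normalized counts per kb in ATM-WT (1321 to 2211) and 1250 ± 123 in ATM-KO (1063 to 1366), so the sums overlapped while the shares did not. These shares are descriptions without a test of their own, and Fgfr4 is not in them.

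**Figure D2:**
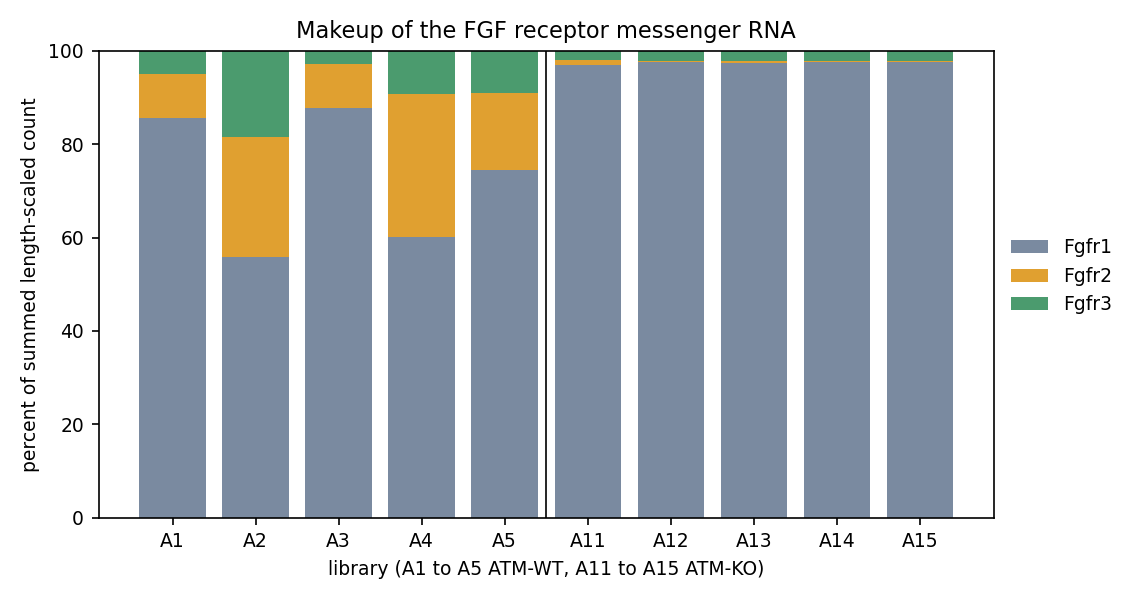
Percent of the summed length-scaled normalized count of Fgfr1 (grey-blue), Fgfr2 (orange) and Fgfr3 (green) in each library, ATM-WT to the left of the line and ATM-KO to the right. Fgfr1 makes up 55.9% to 87.7% in ATM-WT and 97.0% to 97.6% in ATM-KO.

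Fgfbp1 encodes a secreted protein that binds FGF1 and FGF2 and releases them from the heparan sulfate of the matrix, and it is made mainly by squamous and other stratified epithelia. The ATM-WT libraries A1 to A5 had 389, 2871, 812, 2076 and 994 normalized counts. The ATM-KO libraries A11 to A15 had 0, 0.931, 0.767, 0.899 and 0, which corresponds to about 3 reads in all 5 libraries together. The mean of Fgfbp1 was 1428 ± 1018 in ATM-WT and 0.519 ± 0.478 in ATM-KO (limma adjusted p = 1.10e-07). The ratio of these means was 2750, with a 95% Poisson interval from 941 to 13336 that covers counting error of the ATM-KO reads only. The fitted log2 fold change of Fgfbp1, -9.61 ± 0.52, depends on the pseudocount and ranged from -10.28 to -7.69 over the alternatives.

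Among 18 secreted FGF ligands listed, 11 had a row and 4 passed the filter on low values (a mean of at least 10). By limma all 4 were lower in ATM-KO and 0 higher (0 also at an unadjusted p under 0.05), with a median of -2.84. Over all genes tested, 24.3% were called lower and 22.1% higher. Of the 4, Fgf1, Fgf7 and Fgf18 had ATM-KO means under 10 and passed the filter only through their ATM-WT values. The count and median of the 4 are therefore no result about FGF ligands as a group. Without the filter, 4 ligands were called lower and 1 higher. Fgf1, which binds every FGF receptor, fell from 538 ± 104 to 4.12 ± 2.99 (-7.02 ± 0.51, limma adjusted p = 7.14e-07). Fgf7, a mesenchymal ligand of the epithelial FGFR2 form, fell from 82.8 ± 51.6 to 6.80 ± 7.49 (-3.83 ± 0.74). Fgf2, the heparin-binding ligand of FGFR1, fell from 126 ± 42.9 to 51.6 ± 9.94 (-1.22 ± 0.31, limma adjusted p = 0.00576), and after quantile normalization it was -0.66 with an adjusted p of 0.0942. The low gene Fgf18 had 26.9 ± 18.8 and 7.70 ± 6.70 (-1.84 ± 0.65, limma adjusted p = 0.0342), and it lost its call without any single one of A1, A3, A4, A11, A13 or A15 (-1.86 to -1.51, adjusted p 0.0527 to 0.0845) and after quantile normalization (-1.16, 0.167). Fgf10, the other main ligand of the epithelial FGFR2 form, was listed at 0 in every ATM-WT library and at 3.07 to 15.1 in ATM-KO libraries. It was under the filter and entered the test only without it, where limma called it higher (adjusted p = 3.88e-04) and no fold is given against a group at 0.

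Of 15 FGF co-receptors and heparan sulfate core proteins tested, 1 was called higher and 5 lower (over all genes, 22.1% and 24.3%). The median was -0.22. Leaving out 1 library moved these counts to between 0 (without A11 or A15) and 5 (without A3) higher, and between 3 (without A5, A13 or A15) and 6 lower. The glypicans Gpc2 (393 ± 53.0 to 29.5 ± 8.74, -3.73 ± 0.24) and Gpc4 (1566 ± 556 to 378 ± 77.4, -1.99 ± 0.23) fell with limma adjusted p of 3.46e-07 and 2.23e-05. Syndecan-1, an epithelial heparan sulfate carrier encoded by Sdc1, fell from 16313 ± 3341 to 11845 ± 1262 (-0.44 ± 0.14, limma adjusted p = 0.0224). That call ended without A5 (-0.38, adjusted p = 0.0588), A13 (-0.41, 0.0568) or A15 (-0.43, 0.0507), and with upper-quartile scaling (-0.39, 0.0535). Fgfrl1, a receptor of the family that lacks the kinase domain, had 711 ± 306 and 802 ± 145 (0.25 ± 0.25, limma adjusted p = 0.43).

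Of 14 adaptors and enzymes that receptor kinases recruit, 2 were called higher and 3 lower (over all genes, 22.1% and 24.3%). The median was -0.13. The docking protein gene Gab1 fell from 1531 ± 184 to 652 ± 64.9 (-1.23 ± 0.11, limma adjusted p = 3.68e-06). Phospholipase C gamma 1 (Plcg1), which FGF receptors bind directly, fell from 2929 ± 370 to 1549 ± 226 (-0.92 ± 0.12). The adaptor gene Grb2 rose from 2430 ± 208 to 3142 ± 95.3 (0.37 ± 0.08, limma adjusted p = 0.00258). Gab2 was the other call in the higher direction, and without any single library from A2 to A5 or A11 to A15 1 higher call was left.

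Of 13 tested ERK-induced targets and feedback inhibitors, 3 were called higher and 2 lower, with a median of -0.23. Since 22.1% of all genes tested were called higher and 24.3% lower, calls in both directions are not particular to this list. The ETS factor gene Etv4 rose from 412 ± 107 to 1464 ± 108 (1.87 ± 0.18, limma adjusted p = 5.87e-06) and the ERK phosphatase gene Dusp5 from 254 ± 85.9 to 911 ± 155 (1.88 ± 0.21). Etv5 rose from 240 ± 113 to 419 ± 50.3 (0.93 ± 0.29, limma adjusted p = 0.0188), and without both A2 and A4 it was 0.45 with an adjusted p of 0.0644. Sprouty genes encode feedback inhibitors of receptor kinases. Spry1 fell from 1430 ± 448 to 343 ± 68.9 (-2.02 ± 0.21, limma adjusted p = 1.08e-05). Spry2 fell from 379 ± 74.8 to 245 ± 34.3 (-0.62 ± 0.17, limma adjusted p = 0.0108), a call that ended after quantile normalization (-0.40, 0.0760). The ERK phosphatase gene Dusp6 (1796 ± 351 and 1444 ± 65.9, -0.29 ± 0.12, limma adjusted p = 0.0689) and Spry4 (139 ± 77.7 and 96.7 ± 15.3, -0.31 ± 0.40, 0.55) were not called. Without A2 both passed, Dusp6 at -0.35 (0.0389) and Spry4 at -0.71 (0.0380), and without A4 Dusp6 passed as well (-0.36, 0.0318). Dusp6 was also called after quantile normalization (-0.33, 0.0460), with sample weights (-0.37, 0.0110) and without both A2 and A4 (-0.45, 0.00592), where Spry4 was called too (-0.83, 0.0220). The genes of this list thus stood on both sides of zero, as did the genes tested at large.

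**Figure D3:**
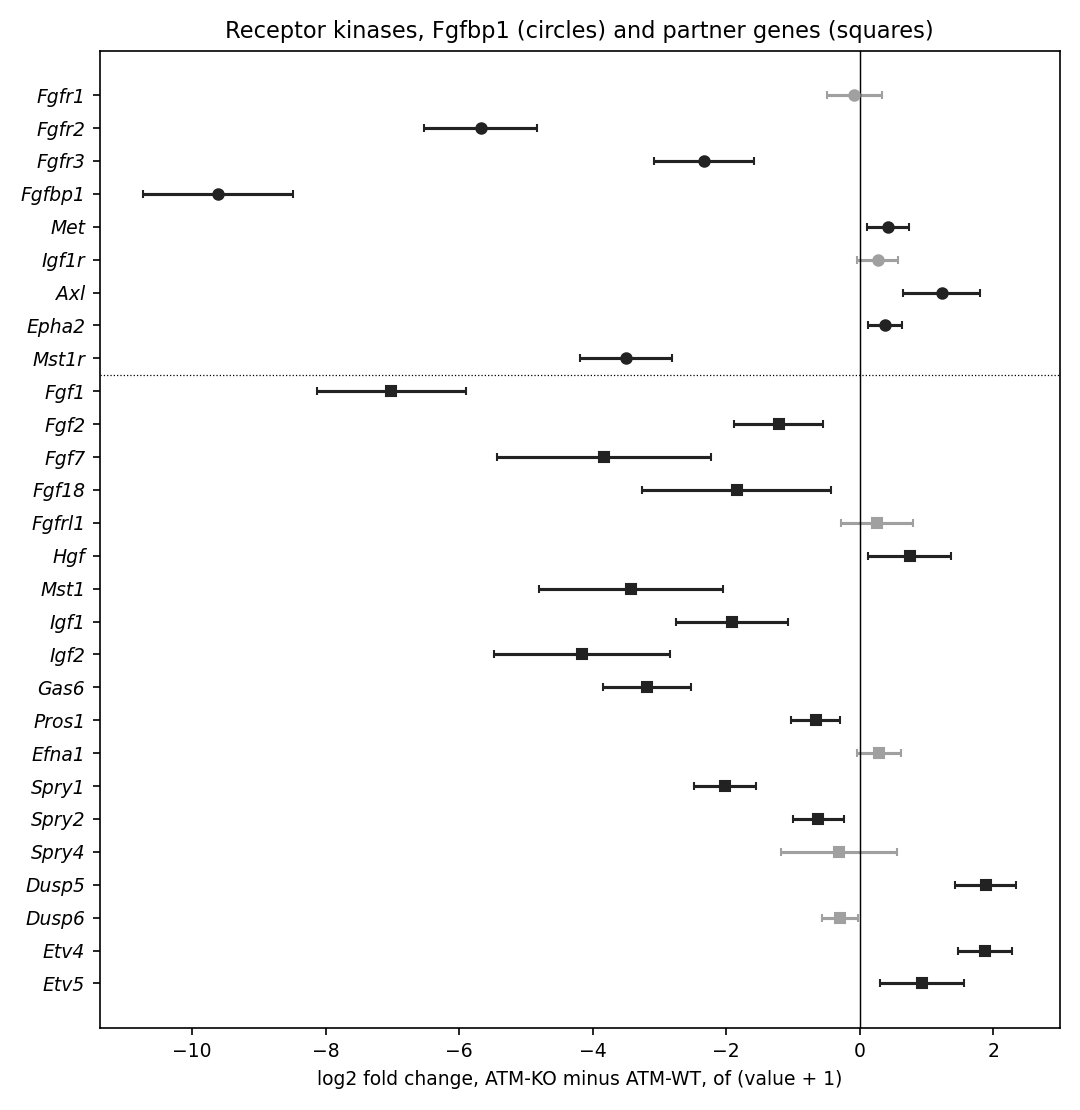
Log2 fold change (ATM-KO minus ATM-WT, of value + 1) with its 95% interval for the 9 genes (circles) and for ligands, partners and ERK-induced genes (squares). Black symbols are called by limma and grey ones are not. Fgfbp1 and Fgfr2 lie farthest to the left among the circles, and Etv4 and Dusp5 lie on the right while Spry1 and Spry2 lie on the left.

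Met and Mst1r encode related receptors and differed in direction. Met, the receptor of hepatocyte growth factor, had 2515, 1404, 2235, 1920.0 and 2236 normalized counts in ATM-WT libraries A1 to A5 and 2524, 2816, 2449.8, 3026 and 2769.7 in ATM-KO libraries A11 to A15. The groups of Met overlapped, since A1 lay above A13, and A2 was the lowest library. The mean rose from 2062 ± 424 to 2717 ± 233, a log2 fold change of 0.42 ± 0.14 (limma adjusted p = 0.0281; by the exact two-sided permutation test p = 0.0159). The call for Met was lost without A4 (0.40, adjusted p = 0.0562), A12 (0.41, 0.0593), A14 (0.38, 0.0703) or A15 (0.41, 0.0575), and without both A2 and A4 the change was 0.22 with an adjusted p of 0.0798. Every alternative kept the positive sign, with adjusted p from 0.0110 to 0.0798.

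Mst1r encodes RON, the receptor of macrophage-stimulating protein. Its ATM-WT libraries A1 to A5 had 186, 308, 225, 356 and 368 normalized counts, and its ATM-KO libraries A11 to A15 had 27.2, 15.1, 39.6, 16.9 and 26.7. No values overlapped, and the lowest ATM-WT library was A1. The mean of Mst1r fell from 289 ± 80.2 to 25.1 ± 9.82 (-3.51 ± 0.32, limma adjusted p = 3.34e-06).

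The 9 tested ligands of MET and RON, with the proteases and inhibitors that control them, had a median of -3.43. Of these, 2 were called higher and 6 lower, against 22.1% and 24.3% of all genes tested. Mst1 and the protease gene Prss8 had ATM-KO means of 4.87 and 1.57 and passed the filter on low values only through ATM-WT. With the filter at a mean of 50, 4 were called lower. The count and median are therefore no result about this list as a group. The matriptase gene St14, whose product cleaves pro-HGF to its active form, fell from 2823 ± 1379 to 66.0 ± 21.6 (-5.27 ± 0.38). The matriptase inhibitor gene Spint2 fell from 4068 ± 1894 to 55.2 ± 7.69 (-6.03 ± 0.32, limma adjusted p = 1.05e-07), so protease and inhibitor were both lower. Mst1, which encodes the RON ligand, fell from 80.5 ± 69.2 to 4.87 ± 2.54 (-3.43 ± 0.63, limma adjusted p = 7.49e-04). The urokinase gene Plau rose from 3160 ± 479 to 5305 ± 233 (0.76 ± 0.11, limma adjusted p = 1.01e-04). Hgf, the MET ligand of stromal cells, had 229.9 ± 97.1 and 357 ± 40.9 (0.74 ± 0.28, limma adjusted p = 0.0475). Leaving out any single library except A1 or A3 ended the call for Hgf (0.50 to 0.82, adjusted p 0.0523 to 0.106), as did 4 other alternatives, with the lowest value, 0.48 and an adjusted p of 0.114, without both A2 and A4.

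Igf1r, the receptor of the insulin-like growth factors, was not called. Libraries A1 to A5 of ATM-WT had 1072, 944, 746, 969.8 and 1281 normalized counts of Igf1r, and libraries A11 to A15 of ATM-KO had 1192, 1131, 1098, 1439 and 1115. Library A5 lay above 4 of the 5 ATM-KO libraries. The means were 1003 ± 196 and 1195 ± 141 (0.27 ± 0.14, 95% interval -0.04 to 0.57, limma adjusted p = 0.14), and without A5 the change was 0.36 and was called (adjusted p = 0.0430).

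Of 13 further genes of the insulin and IGF axis tested with limma, 0 were called higher in ATM-KO (1 at an unadjusted p under 0.05) and 10 lower. Their median was -1.23. Among all genes tested, 22.1% were called higher and 24.3% lower. The count of these 13 called higher was 1 after quantile normalization, with sample weights, and without A3 or A5. The ligand gene Igf1 fell from 3103 ± 1865 to 700.1 ± 131 (-1.91 ± 0.39, limma adjusted p = 0.00140), and Igf2 from 1366 ± 807 to 92.4 ± 79.1 (-4.16 ± 0.61). The binding protein gene Igfbp2 fell from 11662 ± 8451 to 34.4 ± 28.9 (-8.52 ± 0.62, limma adjusted p = 6.59e-07) and Igfbp3 from 36787 ± 4468 to 11979.7 ± 3299 (-1.66 ± 0.19). Igf2r, a receptor that clears IGF2, fell from 3139 ± 614 to 1391 ± 177 (-1.16 ± 0.14). In ATM-WT Igf1 was highest in A1 and A3 (4802 and 5293) and lowest in A2 (915), the order also of the fibroblast marker sum at its extremes.

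Axl, a TAM family receptor found on mesenchymal-like carcinoma cells, fibroblasts and macrophages, was higher in ATM-KO. ATM-WT libraries A1 to A5 had 6753, 1998, 6102, 3424 and 3759 normalized counts of Axl, and ATM-KO libraries A11 to A15 had 9972, 9431, 8843, 9751 and 9140.4. The ATM-KO values were close together and above every ATM-WT value, with A1 and A3 nearest to them and A2 farthest. The mean rose from 4407 ± 1972 to 9427 ± 454 (1.23 ± 0.26, limma adjusted p = 0.00215). Without both A2 and A4 the change of Axl was 0.81 and remained called (adjusted p = 0.0018).

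Of the 4 other genes of the TAM axis, limma called 0 higher (0 at an unadjusted p under 0.05) and 2 lower, with a median of -0.36. The shares of all genes tested were 22.1% higher and 24.3% lower. The AXL ligand gene Gas6 fell from 3419 ± 1874 to 343 ± 74.4 (-3.18 ± 0.30, limma adjusted p = 4.77e-06), opposite to its receptor. Pros1, which encodes protein S, the ligand of the other TAM receptors, fell from 1282 ± 310.4 to 789.5 ± 66.8 (-0.66 ± 0.17). The remaining TAM receptor genes Mertk (376 ± 160 and 377 ± 62.8, 0.09 ± 0.26, limma adjusted p = 0.80) and Tyro3 (495 ± 127 and 466 ± 29.1, -0.05 ± 0.17, limma adjusted p = 0.81) were not called, and their signs changed between alternatives.

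Epha2 encodes an Eph receptor that binds ephrin-A ligands on neighbouring cells. It had 1315, 1651, 1192, 1597 and 1644 normalized counts in ATM-WT libraries A1 to A5 and 1759, 2192, 1793, 1933 and 1877 in ATM-KO libraries A11 to A15. The groups did not overlap, but the gap between A2 and A11 was narrow. The mean of Epha2 rose from 1480 ± 212 to 1911 ± 172 (0.38 ± 0.11, limma adjusted p = 0.0164), and the adjusted p stayed at 0.0472 or below in the alternatives.

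The other Eph receptors did not share this rise. Of 9 tested, limma called 0 higher (0 at an unadjusted p under 0.05) and 5 lower, with a median of -0.93. For these and for the ephrins below, the shares over all genes tested were 22.1% higher and 24.3% lower. Epha4 fell from 599 ± 294 to 12.4 ± 6.40 (-5.46 ± 0.40, limma adjusted p = 6.99e-07), Epha1 from 947 ± 630.4 to 25.3 ± 10.7 (-5.02 ± 0.48) and Ephb3 from 1238 ± 272 to 195 ± 46.6 (-2.67 ± 0.20). Of 8 ephrin genes 0 were called higher (0 at an unadjusted p under 0.05) and 1 lower (3 unadjusted), Efna4 (480.0 ± 103 to 248 ± 54.0, -0.95 ± 0.20, limma adjusted p = 0.0018), with a median of -0.15. Efna1, a main EPHA2 ligand, had 887 ± 190.5 and 1068 ± 117 (0.29 ± 0.15, limma adjusted p = 0.14). Without both A2 and A4 it was called higher (0.44, 0.0361). Without A2 alone, Efna5 (-0.91, adjusted p = 0.00375) and Efnb2 (-0.51, 0.0088) were called lower besides Efna4. Efna5 was also called with sample weights (-0.62, 0.0234) and without both A2 and A4 (-1.01, 0.00306), and Efnb2 in these (-0.36, 0.0324 and -0.57, 0.00627) and after quantile normalization (-0.50, 0.0344).

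**Figure D4:**
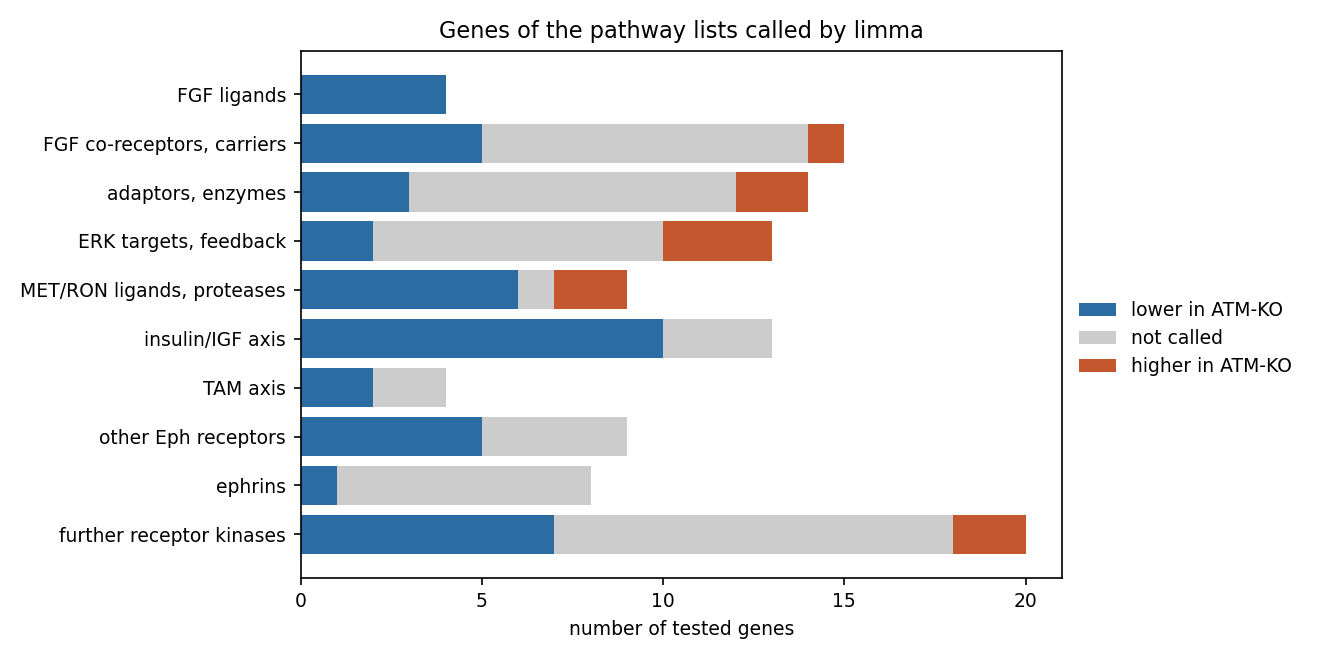
Number of tested genes in each of 10 pathway lists that limma called lower in ATM-KO (blue), higher (orange) or not (grey). The insulin and IGF axis has 10 of 13 called lower and 0 higher. The ERK-induced targets and feedback inhibitors have 3 called higher and 2 lower. Of all genes tested, 24.3% were called lower and 22.1% higher.

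Receptor kinases beyond these genes were called lower more often than higher. Of 20 tested members of further families, 2 were called higher and 7 lower, against 22.1% and 24.3% of all genes tested. Their median was -0.20. The collagen receptor gene Ddr1 fell from 3057 ± 397 to 1245 ± 155 (-1.29 ± 0.12, limma adjusted p = 2.98e-06) and Ptk7 from 3205 ± 450.5 to 1157 ± 263 (-1.49 ± 0.17). Flt3, a receptor of dendritic cells and their progenitors, rose from 36.2 ± 29.0 to 419 ± 32.4 (3.87 ± 0.47, limma adjusted p = 3.28e-05), and the VEGF receptor gene Flt1 from 477 ± 95.8 to 986 ± 67.8 (1.07 ± 0.14). Over all 33 receptor kinase genes of the lists outside the 9 genes, 6.06% were called higher and 39.4% lower, against 37.5% and 37.5% of the 8 receptor kinases described above. In either direction, 45.5% of the 33 and 75% of the 8 were called, against 46.4% of all genes tested. These differences were not tested.

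Levels of different genes were set side by side only per kb of annotated exon. In ATM-WT the order of mean levels was Fgfr1 (1343 ± 448 normalized counts per kb), Axl (1029 ± 461), Fgfbp1 (631 ± 450), Epha2 (378 ± 54.2), Fgfr2 (326 ± 175), Met (303 ± 62.3), Fgfr3 (154 ± 97.9), Igf1r (87.9 ± 17.1) and Mst1r (61.1 ± 17.0). All 8 pairs of neighbours in that order overlapped in their library values. In ATM-KO the order was Axl (2201 ± 106), Fgfr1 (1218 ± 120), Epha2 (488 ± 43.9), Met (399 ± 34.2), Igf1r (105 ± 12.3), Fgfr3 (26.2 ± 2.75), Fgfr2 (6.13 ± 3.36), Mst1r (5.31 ± 2.08) and Fgfbp1 (0.230 ± 0.211). Here only Fgfr2 and Mst1r overlapped, 1 of 8 neighbour pairs. Axl thus stood above Fgfr1 in every ATM-KO library, while in ATM-WT the ranges of these genes overlapped.

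Within ATM-WT the genes varied in opposite ways between libraries. Fgfr1 and Axl were highest in A1 and A3 and lowest in A2, as was the fibroblast marker sum. From lowest to highest, Fgfr3 had the order A3, A1, A5, A4 and A2, which was also that of the epithelial marker sum, and Fgfbp1 was likewise highest in A2 and A4. Over the 10 libraries, with each genotype's mean subtracted from the log2 values, Axl and Fgfr1 had a Pearson r of 0.83, and 0.83 also in the 8 libraries other than A2 and A4. Fgfr1 and Epha2 had r of -0.91 (-0.87 without A2 and A4), and Axl and Fgfr3 -0.91 (-0.54). Against the marker sums, r was 0.86 for Fgfr1 and fibroblast markers (0.77), 0.92 for Epha2 and epithelial markers (0.97), and 0.80 for Fgfr3 and epithelial markers (0.31). With the macrophage sum r was 0.92 for Axl (0.71) and -0.93 for Fgfr3 (-0.68). Axl also had 0.77 with fibroblast markers (0.59) and -0.87 with epithelial markers (-0.66). For Met and for Fgfr2 the r with each of the 3 sums changed sign without A2 and A4. For Axl and Fgfr3 the r rests mainly on the ATM-WT libraries. Deviations of Axl ran from -1.01 to 0.75 in ATM-WT and from -0.09 to 0.08 in ATM-KO. Those of Fgfr3 ran from -1.11 to 1.24 and from -0.23 to 0.14. The r values describe libraries that also share depth and composition, and no p is given.

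**Figure D5:**
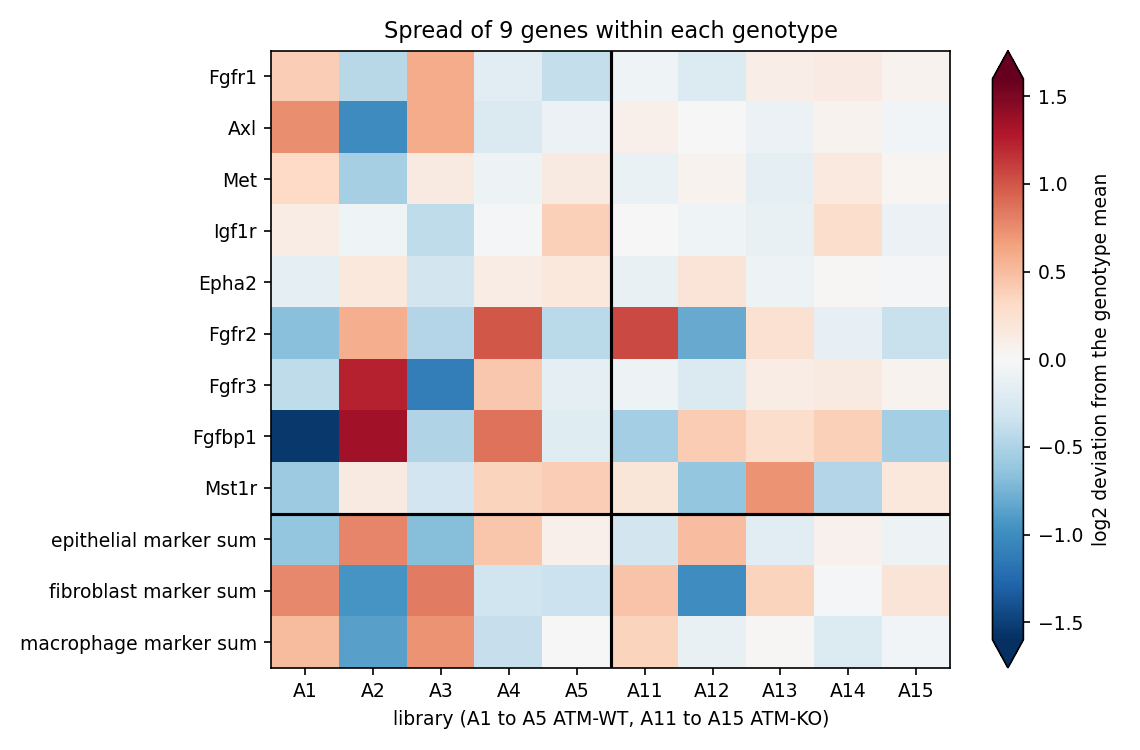
Log2 deviation of each of the 9 genes (rows) from its genotype mean in each library (columns), with 3 marker sums below, red above and blue below the mean, with larger deviations drawn in the end colours. In A1 and A3 Fgfr1 and Axl are above their mean together with the fibroblast and macrophage sums, and in A2 Fgfr3 and Fgfbp1 are above theirs together with the epithelial sum.

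Genes whose values followed each gene most closely, by the same within-genotype Pearson r over 10 libraries and among 12716 genes with a mean of at least 50, were read off without a test. They were Atxn10 and Lbh for Fgfr1 (0.97 each), Mbd3 (0.93) and Atg5 (0.92) for Fgfr2, Muc4 and Got2 for Fgfr3 (0.98 each) and Klrg2 (0.97) and Trnt1 (0.96) for Fgfbp1. For Met they were Cds2 and Pvr (0.97 each), for Axl Wipf1 and Ccn4 (0.99 each), and for Epha2 Lad1 (0.97) and Usp7 (0.96). Mst1r was nearest to Tatdn3 (0.94) and Thap3 (0.93). Igf1r was nearest to Oasl2 (0.95) and Oas3 (0.93), genes of the oligoadenylate synthetase family that interferon induces. Picking the highest r among 12716 genes makes a high r likely in itself. Without A2 and A4 the r of these 18 pairs ranged from 0.84 (Fgfr2 with Atg5, and Met with Pvr) to 0.98 (Axl with Ccn4, and Fgfr1 with Atxn10). The remaining libraries were also used to pick the pairs, so that range is no independent check. Fgfbp1 had about 3 reads in all ATM-KO libraries together, so the ATM-KO part of its r is largely counting noise.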

How the data were processed

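RNA of 10 mouse tumours, 5 ATM-WT and 5 ATM-KO, was extracted and made into libraries by a company, per the labels' protocols. The authors deposited normalized counts per gene symbol, a signal that is not whole and never negative, and STAR, Salmon and DESeq2 are named, per the submitters' processing notes. Versions, genome build, annotation and strand setting: not given in the sources used here. Each column names a genotype and a library number that no sample label carries, so they were assigned to genotypes only.

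When low values (20 reads or fewer) were divided by the estimated worth of 1 read, 59.1% to 69.5% came out whole to within 0.05, so reads were not recovered and no count model was run. Genes with a mean of at least 10 entered limma 3.58.1 (R 4.3.3; linear model, moderated with an intensity trend) as log2(value + 1), Benjamini-Hochberg adjusted over 16517 genes at a threshold of 0.05. The procedure was tested on simulated data. Exact permutation tests were two-sided. Exon lengths came from the union of exons in GENCODE M21 (basic) and promoters from RefSeq. Python 3.11.15, numpy 2.4.6, pandas 2.3.3, scipy 1.17.1 and matplotlib 3.10.9 were used.

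The genes described, and the pathway and marker lists, were chosen with earlier results of these data known. Named genes are all 10, up to 4 tested genes per pathway list with the smallest p, and ligands or direct partners. For genes of like pattern, the 2 with the highest r were named. The marker lists include 10 skeletal muscle genes, of which limma called 0 (0 at an unadjusted p under 0.05), with sums of 39.2 to 2835 in ATM-WT and 29.9 to 1692 in ATM-KO. Gab2 was named after its value was seen. Besides the main settings, 20 alternatives of pseudocount, filter, scaling, eBayes, weights and left-out libraries were run.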

Additional observations from a re-analysis of the deposited data

Results flagged for a closer look

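Among 57 genes named, with 5 libraries per genotype, 3 of 114 groups held a library set apart from the other 4 by a gap above 0.71 of the group's range. Chance flags about 1 in 20 groups. In ATM-KO, Igf1r was highest in A14 with 1439 normalized counts, against 1098 to 1192 in the others. Also in ATM-KO, Sdc1 was highest in A12 with 14015 and Spry2 lowest in A13 with 184.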

How the results depend on the processing

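No paired analysis was possible because the columns of the table carry no sample number of the labels. Fgfr2, Fgfr3, Fgfbp1, Mst1r, Axl and Epha2 kept their direction and their call in all 20 alternatives. Met kept its direction and lost its call after quantile normalization (0.34, adjusted p = 0.0751), with eBayes without trend (0.42, 0.0550) and without ATM-WT A2 and A4 (0.22, 0.0798). Leaving out 1 library in turn gave 0.29 to 0.50 for Met, 0.17 to 0.36 for Igf1r, and -0.195 to 0.0633 for Fgfr1, whose uncalled change also turned sign with sample weights (0.0213). Fitted with 4 libraries in a group, the counts of list members ranged as follows when 1 library was left out. Co-receptors had 0 to 5 higher and 3 to 6 lower, and adaptors 1 to 3 higher. ERK-induced targets and feedback inhibitors had 2 to 4 lower (4 without A2). The MET and RON list of ligands, proteases and inhibitors had 1 to 2 higher. The IGF axis had 0 to 1 higher (1 without A3 or A5). Ephrins had 1 to 3 lower (3 without A2, 2 without A3), and further receptor kinases 4 to 7 lower (4 without A12).

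Without a filter, FGF ligands had 1 higher, adaptors 1 higher and the MET and RON list 1 higher, the protease gene Plau. With the filter at a mean of 50, FGF ligands had 2 lower and co-receptors 2 higher. With upper-quartile scaling, co-receptors had 2 higher and 3 lower, adaptors 1 higher and the MET and RON list 1 higher (Plau). After quantile normalization, FGF ligands had 2 lower, co-receptors 3 higher, the IGF axis 1 higher, ephrins 2 lower and further receptor kinases 4 higher. With eBayes without trend, adaptors had 1 higher and the MET and RON list 1 higher (Plau). With sample weights, co-receptors had 5 higher, the IGF axis 1 higher, ephrins 3 lower and further receptor kinases 4 higher. Without A2 and A4, co-receptors had 2 higher and 8 lower, and adaptors 1 higher. In that setting ERK-induced targets and feedback inhibitors had 5 lower, the MET and RON list 1 higher (Plau) and ephrins 1 higher and 3 lower. Uncalled changes that turned sign were Spry4 after quantile normalization (0.17), Mertk without A2 and A4 (-0.28; -0.0824 to 0.29 with 1 library left out) and Tyro3 with upper-quartile scaling (0.0034), quantile normalization (0.0747), sample weights (0.0148), without A2 and A4 (0.21) and with 1 library left out (-0.13 to 0.0591). The cause was not tested. Library A2, of lowest estimated depth, limits the precision of low genes in ATM-WT, and A4 also had many genes at 0 (4266).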
